A study of Mus musculus with 24 samples.

Results

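The 10 genes described here encode elastin (Eln), the microfibril protein fibrillin-1 (Fbn1), the fibulins Fbln1, Fbln2 and Fbln5, and the lysyl oxidase family (Lox, Loxl1, Loxl2, Loxl3 and Loxl4). They were found by symbol among 37310 genes of the deposited tables, and all 10 passed the filter on low values (an FPKM of at least 1 in at least 2 of 16 libraries, passed by 14095 genes). FPKM is the number of sequenced fragments of a gene per kilobase of its transcript, scaled to the depth of the library. The set was chosen by the levels of Lox and Fbln2, which rank among the most abundant genes of WAT cells on day 8 with EGCG, so levels in that group are given as a description with no test. RNA was sequenced from stromal vascular fraction (SVF) cells of C57BL/6 mice that were 6 weeks old, taken from inguinal white adipose tissue (WAT) or interscapular brown adipose tissue (BAT). The cells were driven to form adipocytes in culture and harvested when the induction medium was withdrawn (day 4) or after a further spell in differentiation medium (day 8). Each depot and day had cultures with EGCG (epigallocatechin gallate, the main catechin of green tea) and cultures with the solvent DMSO, called control below. The 8 groups are therefore WAT or BAT, day 4 or day 8, and control or EGCG, each with 3 libraries, and all of them share the same strain, age and differentiation protocol. The EGCG dose and whether the replicates were separate cell isolations are not stated in the sources used here, so p-values measure only the spread between these samples, which may be technical.

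Elastic fibres give tissues their recoil. Tropoelastin, the soluble product of Eln, is deposited on a scaffold of fibrillin microfibrils, fibulins bridge and organise the parts, and lysyl oxidases, copper-dependent amine oxidases, oxidise lysine side chains so that elastin and collagen chains become covalently crosslinked. In adipose tissue the extracellular matrix is remodelled while fibroblast-like precursors round up and fill with lipid, and Lox is known as a matrix enzyme of fibrotic fat.

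RefSeq promoter windows were at hand for 5 of the 10 genes (Fbn1, Fbln1, Fbln2, Fbln5 and Loxl4) and missing for Lox, Loxl1, Loxl2, Loxl3 and Eln. The stretches just before the RefSeq start sites of Fbln1 and Fbln2 are shown because these paralogous fibulins moved furthest in opposite directions with EGCG. For Fbln1 the 250 bases lie at chr15:85036129-85036378 and for Fbln2 the 30 bases lie at chr6:91162728-91162757, both on the plus strand of the mouse NCBIM37 (mm9) build, where they were found letter by letter. The gene Fbln2 starts further upstream in the mm9 annotation (GENCODE vM1). The 250 bases before its RefSeq start overlap an annotated Fbln2 exon, so only the last 30 are shown. The Fbln1 stretch overlaps no exon. The capitals mark an E-box (CACGTG) in Fbln1 and a GC box (GGGCGG, here on the opposite strand) in Fbln2.
Fbln1: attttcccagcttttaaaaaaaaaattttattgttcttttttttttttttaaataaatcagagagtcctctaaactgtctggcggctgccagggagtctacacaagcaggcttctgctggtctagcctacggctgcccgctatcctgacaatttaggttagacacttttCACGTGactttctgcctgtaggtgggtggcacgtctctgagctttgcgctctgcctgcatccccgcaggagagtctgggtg
Fbln2: gcaaaatcgaggccCCGCCCtgaggcggga
The Fbln1 E-box spans bases 81 to 76 before the start, and the Fbln2 GC box spans bases 16 to 11. Both strands of the 250 bases before each RefSeq start were searched for a TATA box (TATAAA), the GC box, an AP-1 site (TGANTCA), the E-box and an antioxidant response element (TGACNNNGC). Of all 32851 windows, 12.4% held the TATA box, 32.7% the GC box, 6.75% the AP-1 site, 6.02% the E-box and 10.2% the antioxidant response element. In the members' windows only GC boxes (Loxl4 3, Fbn1 1, Fbln2 1, Fbln5 2 in its first window and Fbln1 1 in its second window) and the Fbln1 E-box were matched, and a match describes letters, not binding.

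Replicates 1 and 2 of every group stand in 1 table (16 libraries with 39452696 to 52893848 reads on genes) and replicate 3 in a second table (8 libraries with 16392420 to 41675643), scaled separately. Tests therefore used replicates 1 and 2, and replicate 3 is given beside them for its direction. The WAT day 8 EGCG library of replicate 3 stood apart, with 61.0% of its reads on 5 genes against 3.64 to 10.5% in the other 23 libraries, which lowers the FPKM of every other gene in it. The depot labels fitted their markers, with Zic1 (a brown-fat lineage factor) at mean FPKM 3.81 to 10.8 in BAT groups and at most 0.146 in WAT groups, and Hoxc10 (a posterior patterning gene) at 6.32 to 11.9 in WAT groups and at most 0.0292 in BAT groups. In bulk RNA, fewer cells of a type and less RNA per cell cannot be told apart.

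The members lie on 9 chromosomes of mm9 and none overlaps another. The enzymes are at chr18:52675723-52689521 (Lox, ENSMUSG00000024529), chr9:58135530-58161019 (Loxl1, ENSMUSG00000032334), chr14:70008978-70095640 (Loxl2, ENSMUSG00000034205), chr6:82984167-83002556 (Loxl3, ENSMUSG00000000693) and chr19:42668472-42687303 (Loxl4, ENSMUSG00000025185). Elastin is at chr5:135179651-135223111 (ENSMUSG00000029675) and fibrillin-1 at chr2:125126330-125333729 (ENSMUSG00000027204). The fibulins are at chr15:85036379-85116965 (Fbln1, ENSMUSG00000006369), chr6:91162449-91222534 (Fbln2, ENSMUSG00000064080) and chr12:102984775-103057265 (Fbln5, ENSMUSG00000021186). Exons of Loxl3 overlap Htra2 and exons of Fbn1 overlap Gm9913, both on the opposite strand, and the strand setting of the read counting is not given in the sources used here, so reads of these neighbours cannot be told apart.

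In the tested comparisons (WAT on day 4 and BAT on both days) the crosslinking enzymes and Fbln2 rose with EGCG, and elastin and Fbln1 fell. In WAT on day 4, 6 of the 10 members rose (34.4% of all tested genes did) and 4 fell (19.3% of all tested genes). In BAT on day 4, 7 rose (27.9% of all genes) and 2 fell (20.6%), with Fbn1 not passing the test. In BAT on day 8, 8 rose (46.5% of all genes) and 2 fell (26.1%). On the log2(FPKM + 1) scale the median change of the members was 0.30, 0.79 and 0.82 in that order, beside 0.09, 0.03 and 0.17 over all tested genes. Every member called in these comparisons changed the same way in replicate 3. With median-ratio scaling of the libraries, which moved the median of all genes by 0.11 in WAT day 4 and by 0.15 in BAT day 8, the members' counts were 5 up and 4 down, 7 up and 2 down, and 8 up and 2 down. The call lost in WAT day 4 with that scaling was that on Lox (log2 change 0.05, adjusted p = 0.556 by limma). Over all genes that scaling changed the share of calls that were higher from 64.1 to 44.7% in WAT day 4 and from 64.0 to 51.8% in BAT day 8.

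**Figure D1:**
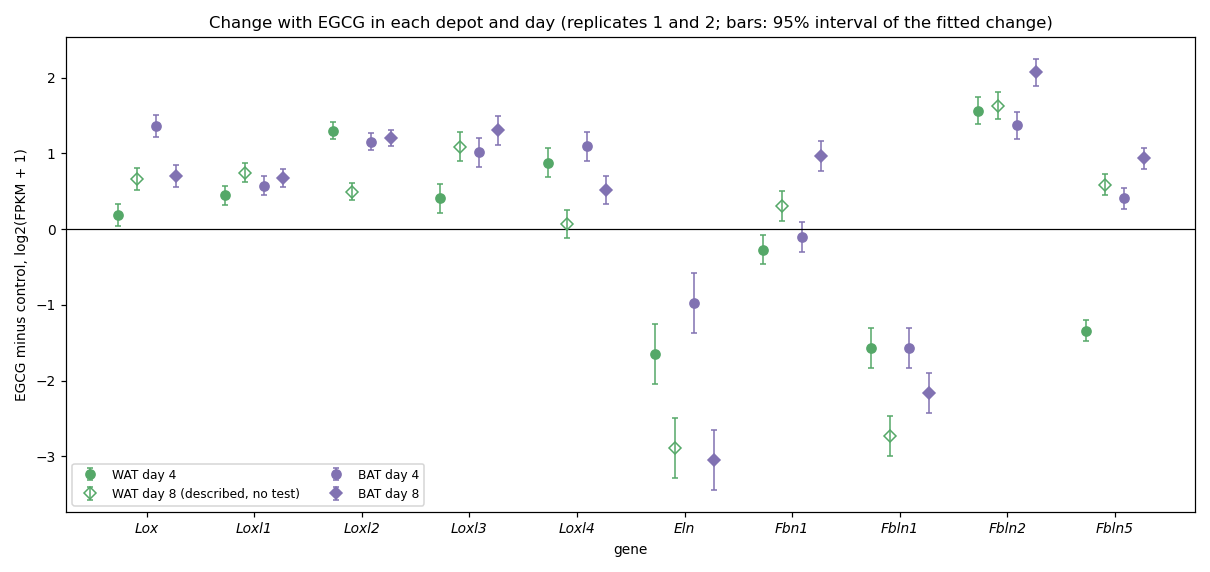
Change with EGCG for each gene as the difference of log2(FPKM + 1) between EGCG and control. Bars are 95% intervals from the fit on replicates 1 and 2. Circles are day 4, diamonds day 8, green WAT and purple BAT. Open symbols mark WAT day 8, which is described with no test because levels of that group chose the set. Bars on the open symbols show only the spread of the fit and are not to be read against 0. Lox, the 4 Lox-like genes and Fbln2 lie above 0 (Loxl4 in WAT day 8 by 0.07, which is -0.12 with median-ratio scaling), Eln and Fbln1 lie below 0 in every comparison, and Fbln5 lies below 0 only in WAT on day 4.

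Lox, the founding lysyl oxidase of elastin and fibrillar collagen, was the most abundant of the 5 enzymes in every group. Its FPKM in replicates 1, 2 and 3 was 457, 408 and 377 in BAT day 4 control and 1162, 1064 and 926 in BAT day 4 EGCG. In BAT on day 8 it was 1078, 1070 and 1035 in control and 1774, 1732 and 1570 with EGCG. Neither pair of BAT groups overlapped, and the rise was 2.57-fold on day 4 (log2 change 1.36 ± 0.066 SE, adjusted p = 2.7e-08) and 1.63-fold on day 8 (0.71 ± 0.066, adjusted p = 1.28e-06). In WAT on day 4 it was 876, 887 and 653 in control against 1000, 1014 and 910 with EGCG. That 1.14-fold difference passed the test (0.19 ± 0.066, adjusted p = 0.029) but lost the call without any 1 of the 4 libraries (adjusted p 0.0774 to 0.109) and with median-ratio scaling of the libraries (log2 change 0.05, adjusted p = 0.556). The EGCG effect on Lox was larger in BAT than in WAT on day 4 by 1.17 ± 0.094 (adjusted p = 7.47e-06), and in BAT it was smaller on day 8 than on day 4 by 0.66 ± 0.094 (log2 difference -0.66, adjusted p = 0.000113). With quantile normalization that difference between days was -0.17 and the call was lost (adjusted p = 0.144).

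The other 4 enzymes crosslink collagens and elastin as well, and Loxl1 is the one best known for elastic fibre renewal. All 4 rose with EGCG on day 4 in WAT and on both days in BAT. In that order Loxl1 rose 1.37-fold, 1.49-fold and 1.6-fold. Loxl2, which also acts on basement membrane collagen, was 137, 144 and 117 FPKM in WAT day 4 control against 350, 345 and 321 with EGCG, with no overlap. Its rise was 2.47-fold there (1.30 ± 0.049, adjusted p = 3.37e-09), 2.24-fold in BAT day 4 and 2.32-fold in BAT day 8. Loxl3 was 36.5, 39.7 and 47.0 FPKM in BAT day 8 control and 99.3, 91.8 and 103 with EGCG, again with no overlap (2.51-fold, 1.30 ± 0.088, adjusted p = 7.45e-08). Loxl3 rose 2.06-fold in BAT day 4 and 1.36-fold in WAT day 4, and the difference between depots passed the test (0.61 ± 0.125, adjusted p = 0.00432). Loxl4 was the rarest enzyme, at 1.43, 1.76 and 1.57 FPKM in WAT day 4 control and 3.53, 3.98 and 3.24 with EGCG, a 2.35-fold rise (0.87 ± 0.087, adjusted p = 6.54e-06). Its rise in BAT was 2.88-fold on day 4 and 1.53-fold on day 8, and the difference between days passed the test (-0.58 ± 0.123, adjusted p = 0.00181).

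Summed over the 5 enzymes, lysyl oxidase FPKM was 677 to 772 in the BAT day 4 control libraries and 1478 to 1726 with EGCG, and 1348 to 1361 in BAT day 8 control and 2146 to 2344 with EGCG. In WAT day 4 the sum was 960 to 1221 in control and 1527 to 1621 with EGCG. Lox alone made up 55.7 to 79.2% of the sum over all 24 libraries, lowest in BAT day 4 control and highest in BAT day 8 control.

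Eln, the elastin gene, fell with EGCG in each tested comparison. It was 83.4, 75.9 and 63.1 FPKM in WAT day 4 control and 25.7, 23.5 and 20.7 with EGCG, a 3.23-fold fall (-1.65 ± 0.181, adjusted p = 1.51e-05). In BAT on day 4 it was already low, at 6.27, 7.27 and 6.29 in control and 2.58, 3.34 and 2.92 with EGCG (2.28-fold lower, adjusted p = 0.000871). In BAT on day 8 it was 38.6, 39.8 and 40.6 in control and 3.34, 4.43 and 3.72 with EGCG, a 10.1-fold fall (-3.05 ± 0.181, adjusted p = 2.41e-08). Control and EGCG libraries overlapped in none of the 3 comparisons. The fall in BAT was larger on day 8 than on day 4 (log2 difference -2.07 ± 0.257, adjusted p = 3.84e-05), while the difference between depots on day 4 did not pass the test (0.68, 95% interval 0.116 to 1.24, adjusted p = 0.0696). It did pass with the replicate block (adjusted p = 0.0442), with median-ratio scaling (0.79, adjusted p = 0.0414) and with replicate 3 added but its WAT day 8 EGCG library left out (adjusted p = 0.00937). It stayed uncalled with a pseudocount of 0.1, without the filter and with quantile normalization. The same held with voom on recovered reads, with all of replicate 3 added and with each library of the comparison left out in turn.

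Fbn1, whose product is the main protein of microfibrils, differed between days. With EGCG it fell 1.21-fold in WAT day 4 (-0.27 ± 0.089, adjusted p = 0.0232), where the libraries overlapped (270, 296 and 232 FPKM in control, 218, 251 and 202 with EGCG) and the call was lost without replicate 2 of the control (adjusted p = 0.151) or replicate 1 of EGCG (adjusted p = 0.199). In BAT day 4 the change was -0.11 (95% interval -0.302 to 0.0899) and did not pass the test. In BAT day 8 it was 128, 129 and 130 in control and 253, 251 and 219 with EGCG, a 1.96-fold rise with no overlap (0.97 ± 0.089, adjusted p = 1.1e-06). The difference between days in BAT was 1.07 ± 0.126 (adjusted p = 2.62e-05).

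The 3 fibulins moved in different directions. Fbln1, which binds elastin, fibronectin and basement membrane proteins, was 171, 173 and 209 FPKM in WAT day 4 control and 52.6, 62.6 and 59.4 with EGCG (2.99-fold lower, -1.57 ± 0.120, adjusted p = 8.35e-07). It also fell 2.99-fold in BAT day 4 (adjusted p = 7.7e-07). In BAT day 8 it was 25.5, 25.1 and 30.1 in control and 5.02, 4.76 and 5.27 with EGCG, a 5.17-fold fall (-2.16 ± 0.120, adjusted p = 1.33e-08). Control and EGCG libraries did not overlap in any of these, and in BAT the difference between days passed the test (-0.59 ± 0.170, adjusted p = 0.0115), though not without replicate 2 of BAT day 4 EGCG (adjusted p = 0.0524).

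Fbln2, a fibulin that binds fibrillin and is made in developing and healing connective tissue, rose in the same comparisons. It was 341, 355 and 301 FPKM in WAT day 4 control and 1062, 996 and 1143 with EGCG (2.95-fold, 1.56 ± 0.081, adjusted p = 3.91e-08). In BAT it was 493, 434 and 438 against 1234, 1165 and 1173 on day 4 (2.59-fold, adjusted p = 1.17e-07). On day 8 it was 425, 448 and 519 against 1876, 1793 and 1814 (4.2-fold, 2.07 ± 0.081, adjusted p = 7.8e-10). The rise in BAT was larger on day 8 than on day 4 (0.70 ± 0.115, adjusted p = 0.000331). Fbln5, which tethers tropoelastin to microfibrils and cells, split by depot on day 4. It fell in WAT day 4 from 21.3, 20.4 and 17.9 to 7.26, 8.01 and 8.03 FPKM (2.73-fold, -1.34 ± 0.064, adjusted p = 1.76e-08) and rose in BAT day 4 from 8.36, 8.17 and 8.80 to 12.0, 10.5 and 10.2 (1.37-fold, adjusted p = 0.000255). That difference between depots was 1.74 ± 0.090 (adjusted p = 5.43e-07), the largest of the 10 members. On day 8 in BAT Fbln5 rose 1.96-fold, from 16.9, 18.3 and 18.3 to 34.4, 34.3 and 34.5 FPKM (adjusted p = 7.75e-08), more than on day 4 (0.53 ± 0.090, adjusted p = 0.000404). In WAT day 8, described without a test, it was 16.9 and 16.2 FPKM in control and 25.5 and 25.1 with EGCG in replicates 1 and 2. Replicate 3 there was 17.6 and 9.87 as deposited, or 19.2 and 23.9 after median-ratio scaling.

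**Figure D2:**
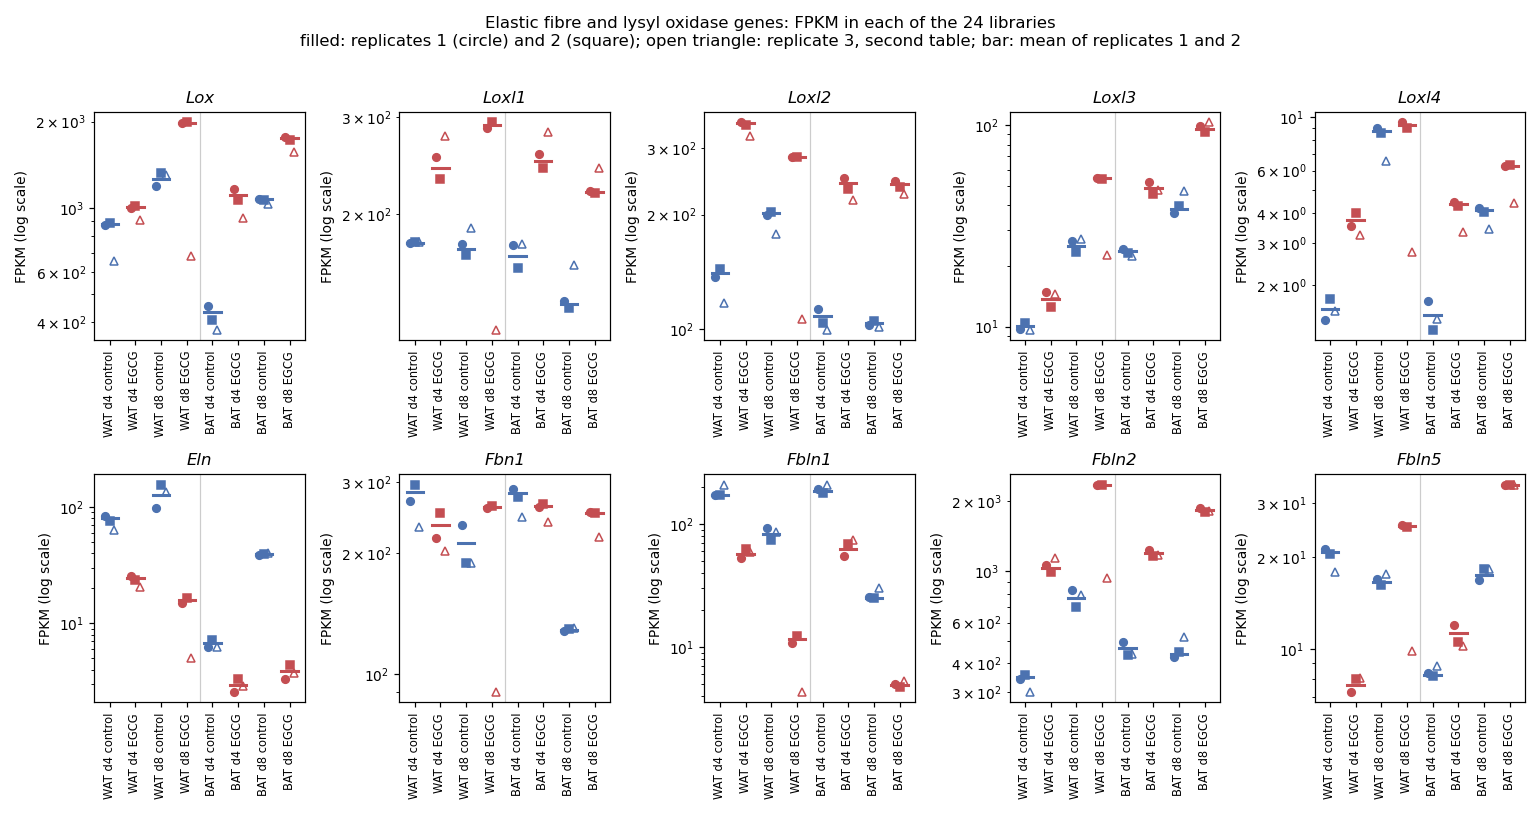
FPKM of each member in all 24 libraries on a log axis, 1 panel a gene and 1 column a group (WAT left and BAT right of the grey line; d4 and d8 are days 4 and 8); blue is control and red EGCG, filled symbols are replicates 1 and 2, open triangles replicate 3, and bars the mean of replicates 1 and 2. The open triangle of WAT day 8 EGCG lies far below its group in every panel, the library with 61.0% of its reads on 5 genes.

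Where the EGCG effects themselves were compared, 3 members (Lox, Loxl3 and Fbln5) had a more positive EGCG effect in BAT than in WAT on day 4 (12.0% of all genes were called in that direction), and 0 had a more negative one (16.1% of all genes), by limma. At an unadjusted p under 0.05 these counts were 4 and 0, and with voom on recovered reads 3 and 0. With replicate 3 added but its WAT day 8 EGCG library left out, 6 members were called, Loxl2 and Fbln2 with a more negative effect in BAT. Between the days in BAT, 3 members had a more positive effect on day 8 (34.7% of all genes) and 4 a more negative one (20.6%). Median-ratio scaling moved the share of all calls that were higher from 42.7 to 61.5% for the depots and from 62.8 to 49.3% for the days, and the counts of members to 4 and 0 and to 3 and 4.

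Adipocyte genes fell in the same libraries. Beside the marker counts that follow, 34.4% of all tested genes rose and 19.3% fell in WAT day 4. In BAT 27.9% rose and 20.6% fell on day 4, and 46.5% rose and 26.1% fell on day 8. All 10 markers of mature adipocytes (among them Adipoq, Fabp4, Plin1 and Lep) fell with EGCG on day 4 in WAT and on days 4 and 8 in BAT, with median changes of -2.30, -2.18 and -4.82, and their summed FPKM was 3706 to 4368 against 985 to 1157 in WAT day 4 and 6299 to 7995 against 1527 to 1590 in BAT day 4. Smooth muscle and myofibroblast markers (Acta2, Tagln, Cnn1, Myh11, Des and Actg2) went different ways, with 1 up and 5 down in WAT day 4, 5 up in BAT day 4 (Des, at 0.12, did not pass) and 4 up and 2 down in BAT day 8. Their summed FPKM was 169 to 194 against 90.3 to 98.2 in WAT day 4, 99.4 to 134 against 706 to 877 in BAT day 4 and 403 to 548 against 1339 to 1704 in BAT day 8. Of 7 tested preadipocyte and fibroblast markers, 2 rose and 3 fell in WAT day 4, 2 rose and 1 fell in BAT day 4, and 1 rose and 4 fell in BAT day 8. Of 5 tested macrophage markers, 4 rose in WAT day 4, 3 rose in BAT day 4 and 5 fell in BAT day 8, with sums over all 6 markers of 65.2 to 70.5 in control against 164 to 180, 150.5 to 171 against 340.0 to 409 and 102 to 110.3 against 52.5 to 55.6 FPKM. Endothelial markers rose in 5 of 6 in each comparison with sums of at most 38.8 FPKM (Cldn5 fell in BAT day 8, and median-ratio scaling left 4 up in WAT day 4 and 3 in BAT day 8), both tested mesothelial markers (Msln and Krt19) rose in each (0 did in BAT day 8 with median-ratio scaling, and 1 in each BAT comparison with voom on recovered reads), and mesothelial Upk3b was listed at 0 in 6 of the 8 groups. Skeletal muscle markers gave 2 up of 3 in WAT day 4 and 1 down of 3 in BAT day 8. Of the adipocyte markers Lep was at 0 in 1 or more libraries of both WAT EGCG groups, and the part of these marker changes in the members' changes was not tested.

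During differentiation without EGCG, the members separated into genes that rose and genes that fell from day 4 to day 8. In WAT controls 6 rose (27.7% of all genes) and 3 fell (33.2%), and in BAT controls 5 rose (28.7%) and 3 fell (40.4%). The medians were 0.51 and 0.30, beside -0.03 and -0.10 over all genes. In BAT controls median-ratio scaling moved the share of all calls that were higher from 41.5 to 53.3% and left the members' counts at 5 and 3. Lox rose 1.43-fold in WAT (0.51 ± 0.066, adjusted p = 3.62e-05) and 2.48-fold in BAT (1.31 ± 0.066, adjusted p = 9.48e-09). Loxl4 rose 5.51-fold in WAT and 2.71-fold in BAT, and Loxl3 2.49-fold and 1.61-fold. Fbln1 fell 2.06-fold in WAT (-1.04 ± 0.120, adjusted p = 1.41e-05) and 7.34-fold in BAT (-2.83 ± 0.120, adjusted p = 2.73e-09). These comparisons share the control libraries with the EGCG comparisons, so a low day 8 control level enters both.

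Eln rose 5.78-fold in BAT controls, from 6.77 ± 0.71 to 39.2 ± 0.85 FPKM (SD, n = 2; 2.37 ± 0.181, adjusted p = 2.87e-07). In WAT controls it rose 1.59-fold, from 83.4, 75.9 and 63.1 to 97.1, 156 and 134 (0.62 ± 0.181, adjusted p = 0.0109), a call lost without replicate 2 of the day 8 control (log2 change 0.28, adjusted p = 0.118) or replicate 2 of the day 4 control (adjusted p = 0.0651). Fbn1 fell 2.2-fold in BAT controls, from 289, 276 and 246 to 128, 129 and 130 (adjusted p = 3.77e-07), and 1.34-fold in WAT controls (adjusted p = 0.0015). The WAT control libraries overlapped only between replicate 3 of day 4 (232 FPKM) and replicate 1 of day 8 (235 FPKM), which were scaled separately. Fbln2 rose 2.2-fold in WAT controls (1.13 ± 0.081, adjusted p = 3.09e-07) and in BAT controls changed by -0.08 (95% interval -0.262 to 0.0951). Fbln5 fell 1.26-fold in WAT controls (adjusted p = 0.00108) and rose 2.12-fold in BAT controls (adjusted p = 5.93e-08). Loxl1 fell in BAT controls (-0.29 ± 0.056, adjusted p = 0.000696), Loxl2 rose in WAT controls (0.51 ± 0.049, adjusted p = 3.05e-06), and their changes in the other depot were -0.04 (95% interval -0.163 to 0.0831) and -0.06 (-0.165 to 0.051).

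With EGCG in BAT, 5 members rose from day 4 to day 8 (29.7% of all genes) and 2 fell (28.2%). Fbln1 fell 12.7-fold, from 62.2 ± 9.5 to 4.89 ± 0.18 FPKM (SD, n = 2; -3.42 ± 0.120, adjusted p = 2.57e-09), the largest change of any member in a tested comparison. Fbln5 rose 3.05-fold, Loxl3 1.96-fold, Lox 1.57-fold, Fbln2 1.53-fold and Loxl4 1.45-fold. Eln, which had risen in the controls, changed by 0.30 (95% interval -0.0995 to 0.697, adjusted p = 0.182). Loxl1 fell (-0.19 ± 0.056, adjusted p = 0.0136), a call lost without replicate 1 of BAT day 4 EGCG, replicate 1 of BAT day 8 EGCG or replicate 2 of BAT day 8 EGCG (adjusted p 0.108, 0.0515 and 0.0611).

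Elastin was lower in BAT than in WAT in each tested comparison of the depots. In day 4 controls 2 members were higher in BAT than in WAT (41.4% of all genes) and 4 lower (14.4%), in day 8 controls 1 was higher (31.6%) and 8 lower (22.0%), and in day 4 EGCG cells 3 were higher (32.9%) and 2 lower (15.8%). Median-ratio scaling moved the share of all calls that were higher from 74.3 to 51.6% in day 4 controls and from 67.6 to 56.9% in day 4 EGCG cells, and the members' counts to 2 and 5 and to 2 and 2. Eln was 11.8-fold lower in BAT in day 4 controls (-3.38 ± 0.181, adjusted p = 1.25e-07), 3.23-fold lower in day 8 controls (-1.63 ± 0.181, adjusted p = 1.6e-05) and 8.31-fold lower in day 4 EGCG cells (-2.70 ± 0.181, adjusted p = 5.01e-07). Loxl3 was higher in BAT in all 3 comparisons, by 2.35-fold, 1.52-fold and 3.56-fold. Lox was 2.04-fold lower in BAT day 4 controls (-1.03 ± 0.066, adjusted p = 4.66e-07). In day 8 controls it was 1.17-fold lower (-0.23 ± 0.066, adjusted p = 0.0127), a call lost without replicate 2 of WAT (adjusted p = 0.0892) or replicate 2 of BAT (adjusted p = 0.053), and in day 4 EGCG cells the difference was 0.14 (95% interval -0.00216 to 0.289). Fbln5 was 2.52-fold lower in BAT day 4 controls and 1.48-fold higher in BAT day 4 EGCG cells. Fbln1 differed by 0.11 in both day 4 comparisons (adjusted p 0.468 and 0.499) and was 3.3-fold lower in BAT day 8 controls (adjusted p = 4.71e-07). Fbln2 was 1.33-fold higher in BAT day 4 controls (adjusted p = 0.00128) and 1.75-fold lower in BAT day 8 controls (adjusted p = 7.32e-06), and its difference in day 4 EGCG cells (0.22, adjusted p = 0.0413) lost its call without any 1 of the 4 libraries (adjusted p 0.0568 to 0.202).

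WAT day 8 EGCG cells, whose levels chose the set, are described without a test. Lox was 1972 and 1987 FPKM in replicates 1 and 2, the rank of 10 by FPKM among all genes, and 684 in replicate 3. After median-ratio scaling it was 1776, 1803 and 1655 in replicates 1, 2 and 3. Fbln2 was 2348 and 2363 FPKM, ranking 6 and 5, and 930 in replicate 3. After that scaling it was 2115, 2143 and 2250 in replicates 1, 2 and 3. In the WAT day 8 control the group means of Lox and Fbln2 ranked 27 and 44. BAT day 8 EGCG cells stood close, with ranks of 8 for Lox and 7 for Fbln2 by their group means. By recovered reads, not corrected for length, Lox and Fbln2 ranked 4 and 2 in WAT day 8 EGCG. Together the 10 members took 2.61 and 2.63% of all reads on genes in replicates 1 and 2 of that group, against 1.40 to 1.46% in the 3 WAT day 8 controls. In replicate 3 of that group, with 61.0% of its reads on 5 genes, they took 0.974%.

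Relative to the WAT day 8 control, Loxl3 and Fbln2 were at least 2-fold higher in replicates 1 and 2 (3.89% of all genes were) and Eln and Fbln1 at least 2-fold lower (5.54%), on the log2(FPKM + 1) scale. Loxl3 was under 2-fold with median-ratio scaling (log2 difference 0.89) and with quantile normalization (0.94). Median-ratio scaling moved the share of genes past 2-fold that were higher from 41.2 to 27.2%. Eln was 14.98, 16.6 and 5.08 FPKM with EGCG against 97.1, 156 and 134 in control, and Fbln1 was 10.8, 12.4 and 4.33 against 93.1, 74.0 and 85.9. Loxl1 was 1.68-fold, Lox 1.57-fold, Fbln5 1.53-fold and Loxl2 1.41-fold higher, Fbn1 1.23-fold higher, and Loxl4 differed by 0.07, a difference that changed sign with median-ratio scaling (-0.12). In replicate 3 as deposited only Fbln2, Eln and Fbln1 kept their direction, and after median-ratio scaling 9 of 10 did. From day 4 to day 8 with EGCG in WAT, 4 members were at least 2-fold higher (4.52% of all genes; Loxl3, Fbln5, Fbln2 and Loxl4) and Fbln1 at least 2-fold lower (3.58%). Between depots on day 8 with EGCG, 0 members were at least 2-fold higher in BAT (1.46% of all genes) and 2, Eln and Fbln1, at least 2-fold lower (1.84%).

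Within each library the ratio of Lox to Eln, both per transcript length, moved over a wide range. It was 10.4 to 11.7 in WAT day 4 control and 38.9 to 43.9 with EGCG, and 8.51 to 12.3 in WAT day 8 control and 120.0 to 134.5 with EGCG. In BAT it was 56.1 to 73.0 in day 4 control, 317 to 450 in day 4 EGCG, 25.5 to 28.0 in day 8 control and 391 to 531 in day 8 EGCG. The ratio of Fbln2 to Fbln1 was 1.44 to 2.58 in the 6 day 4 control libraries, 15.7 to 22.3 in the 6 day 4 EGCG libraries, 8.91 to 17.8 in the 6 day 8 controls and 190.0 to 376 in the 6 day 8 EGCG libraries. A ratio within a library does not depend on its scaling, and replicate 3 of WAT day 8 EGCG, at 134.5 and 214.5, lay with its group.

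**Figure D3:**
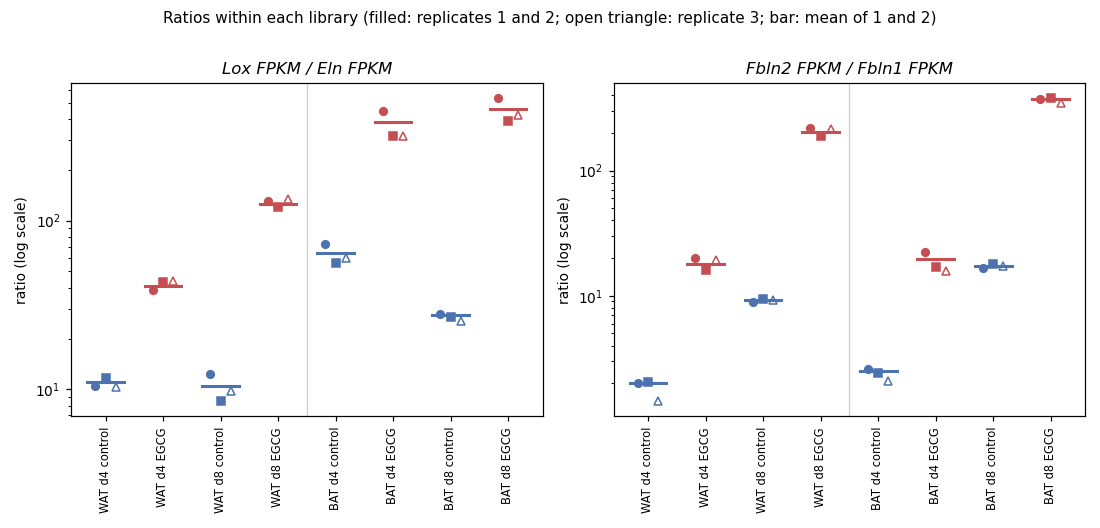
Ratio of Lox to Eln FPKM (left) and of Fbln2 to Fbln1 FPKM (right) in each of the 24 libraries on a log axis; groups and symbols as in the plot of FPKM by library. Every EGCG group lies above its control, and in BAT day 8 the Lox to Eln ratio is 391 to 531 with EGCG against 25.5 to 28.0 in control.

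Other genes of elastic fibre assembly were counted by lists, by limma. Beside these counts, 34.4% of all tested genes rose and 19.3% fell in WAT day 4. In BAT 27.9% rose and 20.6% fell on day 4, and 46.5% rose and 26.1% fell on day 8. Where a count below covers only 1 direction, the other was 0, also at an unadjusted p under 0.05 and with voom on recovered reads. Of 8 microfibril and latent TGF-beta binding genes, 1 rose and 6 fell with EGCG in WAT day 4, BAT gave 3 up and 4 down on day 4 and 3 up and 5 down on day 8, with medians of -0.71, -0.16 and -0.77. Median-ratio scaling gave 0 up and 7 down, 3 up and 4 down, and 3 up and 5 down. Mfap4, a microfibril-associated glycoprotein needed for elastic fibre assembly, fell furthest in WAT day 4, from 50.1 to 2.32 FPKM (-3.96, adjusted p = 4.75e-09), and in BAT day 8, from 29.8 to 7.03. Fbn2, the second fibrillin, fell most in BAT day 4, from 25.5 to 5.87 FPKM. Ltbp2, a fibrillin-binding protein that does not carry latent TGF-beta, rose most in BAT, from 18.2 to 67.9 FPKM on day 4 and from 38.7 to 130 on day 8. Among 6 other fibulins and elastin-associated glycoproteins, 2 rose and 3 fell in WAT day 4, 1 rose and 2 fell in BAT day 4, and 2 rose in BAT day 8. For these the scaling gave 1 up and 3 down, 1 up and 3 down, and 2 up and 0 down. Efemp2 (fibulin-4), which brings Lox to tropoelastin, rose on day 4 in WAT (179 to 394 FPKM) and BAT (339 to 472), while its paralogue Efemp1 (fibulin-3) fell (124 to 41.6 and 202 to 108).

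A list named for lysyl oxidase maturation and copper supply also held more general collagen and matrix genes (Pcolce, Pcolce2, Fn1 and Fkbp10). Of its 10 tested genes, 4 rose and 3 fell in WAT day 4, where 34.4% of all genes rose. In BAT 6 rose and 2 fell on day 4 (27.9% of all genes rose), and 7 rose and 3 fell on day 8 (46.5%). The medians were 0.01, 0.37 and 0.69, and with median-ratio scaling the counts were 4 up and 4 down, 6 up and 3 down, and 6 up and 3 down. Bmp1, the protease that cuts the Lox propeptide, rose most in WAT day 4, from 158 to 339 FPKM. Tll1, a related protease, rose most in BAT, from 1.68 to 4.02 on day 4 and from 0.85 to 5.22 on day 8. Postn (periostin), a matrix protein that helps Bmp1 act on Lox, fell from 1111 to 603 FPKM in WAT day 4 (-0.89, adjusted p = 8.95e-06). On day 8 with EGCG it was among the 5 genes with most reads in every BAT library. The same held for replicates 1 and 2 of WAT day 8 EGCG, and for no control library of either day.

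The substrates of the enzymes other than elastin fell for the most part. Of 5 fibrillar collagens, 3 fell in WAT day 4 (the other 2, Col3a1 and Col5a2, were at -0.25 and -0.02), 1 rose and 4 fell in BAT day 4, and 1 rose and 3 fell in BAT day 8. Median-ratio scaling gave 0 up and 4 down, 1 up and 4 down, and 1 up and 4 down. Col1a2 fell in WAT day 4 (2297 to 950 FPKM) and BAT day 8 (1193 to 601), and Col5a2 rose in BAT day 4 (321 to 428). Of 8 elastin-degrading proteases, 5 rose in WAT day 4, 5 rose and 1 fell in BAT day 4, and 3 rose and 2 fell in BAT day 8. With median-ratio scaling these counts were 4 up and 0 down, 4 up and 1 down, and 3 up and 4 down. Ctss rose from 2.49 to 7.59 FPKM in WAT day 4, Mmp14 from 113 to 435 in BAT day 8, and Mmp9 fell from 8.04 to 0.06 there.

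Of 6 TGF-beta ligands and responsive genes, 3 rose and 2 fell in WAT day 4, 4 rose and 1 fell in BAT day 4, and 5 rose in BAT day 8 (Tgfbi, at -0.01, did not pass). Median-ratio scaling gave 3 up and 3 down, 4 up and 1 down, and 5 up and 0 down. Ctgf, a matricellular protein, rose from 19.5 to 137 in BAT day 4 and from 84.4 to 614 in BAT day 8, and fell from 59.1 to 29.8 in WAT day 4. Of 4 tested ADAMTS-like organisers of microfibrils, 1 rose and 2 fell in WAT day 4, 2 rose and 1 fell in BAT day 4, and 1 rose and 2 fell in BAT day 8. That scaling gave 0 up and 2 down in WAT day 4 and left both BAT counts as they were. Adamtsl5 rose in all 3, from 5.88 to 25.7 FPKM in BAT day 8. The 3 Plod genes, which hydroxylate collagen lysines inside the cell, gave 2 up (Plod2 was at 0.36, adjusted p = 0.0628), 3 up, and 2 up and 1 down, the fall being Plod1 in BAT day 8 from 124 to 45.4 FPKM. After the scaling 2 of them rose in BAT day 4, and the other counts stayed.

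**Figure D4:**
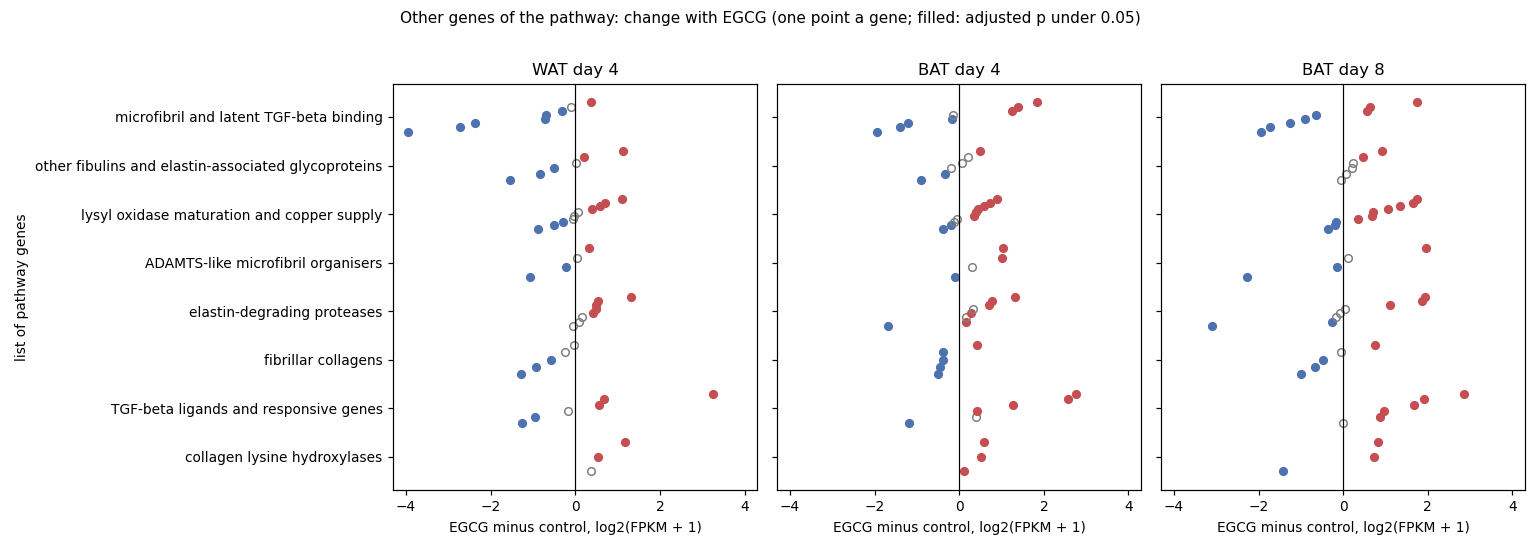
Change with EGCG on the log2(FPKM + 1) scale for each tested gene of the 8 lists, 1 panel a comparison and 1 point a gene; filled points passed the test (red higher, blue lower) and open points did not. Microfibril genes and fibrillar collagens lie mostly on the lower side, and genes of the lysyl oxidase maturation and copper list mostly on the upper side in BAT day 8.

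Over the 8 group means of log2(FPKM + 1), which share libraries and their scaling, the genes most like Lox among 10200 were Flt1 (Pearson r = 0.980), Npdc1 (0.978), Crlf2 (0.974), Emp2 (0.967) and Atf5 (0.958). The pattern of Fbln2 was nearest to 2410004B18Rik (0.990), Dync1li2 (0.986), Leprot (0.986) and Cd80 (0.984). Eln was nearest to Htra3 (0.961), Col1a2 (0.943), Col1a1 (0.940), Pdp1 (0.932) and C1s (0.931). In their order, Lox levels ran from BAT day 4 control through WAT day 4 control, WAT day 4 EGCG, BAT day 8 control, BAT day 4 EGCG, WAT day 8 control and BAT day 8 EGCG to WAT day 8 EGCG. The libraries of replicates 1 and 2 of BAT day 8 control and BAT day 4 EGCG overlapped, whereas those of the other neighbours did not. Eln ran from BAT day 4 EGCG and BAT day 8 EGCG, whose libraries overlapped (2.58 and 3.34 against 3.34 and 4.43 FPKM), to WAT day 8 control at 97.1 and 156.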

How the data were processed

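Libraries were made from RNA of cultured SVF cells, 24 in all, and grouped by depot, day and treatment per the labels. The submitters' processing notes name FastQC 0.11.9, HISAT2 2.2.0, HTSeq 0.11 and the mm9 build. The annotation, the strand setting and the step to FPKM are not given in the sources used here. The deposited values are FPKM, in 2 tables that the authors scaled separately (replicates 1 and 2, and replicate 3). Gene lengths in the file equal the longest GENCODE vM1 transcript for all 37310 genes, and FPKM times length gave whole reads for 100% of values above 0 (tolerance 0.01), so reads per library were recovered.

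Genes with an FPKM of at least 1 in 2 of the 16 libraries of the first table were tested (14095). limma 3.58.1 in R 4.3.3 was fitted to log2(FPKM + 1) with 1 mean per group over all 8 groups and a trended prior. Tests were two-sided, with Benjamini-Hochberg adjustment over all tested genes of a comparison, and 0.05 was the threshold for a call. This scale understates changes of low genes. Errors are SE of the fit, or SD of FPKM with n = 2. The script was tested on simulated data. Comparisons that hold WAT day 8 EGCG received no test. Alternatives were a pseudocount of 0.1, no filter, median-ratio scaling, quantile normalization, a replicate block, both tables with the table as a covariate (with and without WAT day 8 EGCG replicate 3), voom on recovered reads, and leaving out in turn each library of replicates 1 and 2 in a tested comparison. The median-ratio scaled values of replicate 3, and those of replicates 1 and 2 beside them, were added after seeing the data.

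The members and gene lists were chosen with earlier results of these data known. All 10 members are named in full, in each list the called genes with the largest and the smallest change, and for Lox, Fbln2 and Eln the 5 genes with the highest Pearson r over group means (mean FPKM of at least 5 in 1 group). Magp and Fbln6 had no match, Thsd4 had 2, and these were left out. Some genes that this rule names are not reported here. Some genes named beyond that rule were chosen after their values were seen. Promoter windows are RefSeq's (GRCm38.p6), placed on NCBIM37 by exact match. Replicates 1 and 2 do not pair: the differences between them correlated between groups at -0.079 to 0.081 over 28 pairs.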

Additional observations from a re-analysis of the deposited data

Results flagged for a closer look

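The EGCG effect on 3 genes differed between depots on day 4, by the test of the difference itself (BAT minus WAT, log2). It was 1.17 for Lox, 0.61 for Loxl3 and 1.74 for Fbln5. Of all tested genes, 12.0% were called with a more positive effect in BAT and 16.1% with a more negative one. Fbln5 fell in all 3 WAT libraries with EGCG and rose in all 3 BAT libraries.

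The EGCG effect in BAT differed between day 8 and day 4 for 7 genes, by the same kind of test (day 8 minus day 4, log2). It was more negative on day 8 for Eln (-2.07), Lox (-0.66), Fbln1 (-0.59) and Loxl4 (-0.58), and more positive for Fbn1 (1.07), Fbln2 (0.70) and Fbln5 (0.53). Among all tested genes, 20.6% were called more negative and 34.7% more positive. With replicate 3 added, 2 members were called, and 7 once WAT day 8 EGCG replicate 3 was left out. The difference for Lox was -0.17 with quantile normalization (adjusted p = 0.144), and that for Fbln1 lost its call without replicate 2 of BAT day 4 EGCG (-0.43, adjusted p = 0.0524). In the same comparison all 6 smooth muscle and myofibroblast markers (median -1.40) and all 10 mature adipocyte markers (median -2.61) had a more negative EGCG effect on day 8. The smooth muscle and myofibroblast markers summed to 99.4 to 134 FPKM in control and 706 to 877 with EGCG on day 4, and to 403 to 548 and 1339 to 1704 on day 8. The part of these markers in the members' differences was not tested.

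Between day 4 and day 8 of the controls, Fbln5 moved in opposite directions in the depots, with a log2 change of -0.31 in WAT and 1.001 in BAT. That difference between the depots was not tested.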

How the results depend on the processing

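Of 110 gene-wise results in the 11 tested comparisons, no called result reversed under any alternative. A pseudocount of 0.1 changed no call, voom on recovered reads changed 1 and the replicate block changed 1 (Eln between depots, adjusted p = 0.0442), so the block changed no count of calls by over 1.5 times. Adding replicate 3 with the table as a covariate ended 26 calls, and 1 call ended with 4 gained once WAT day 8 EGCG replicate 3 was left out, the library with 61.0% of its reads on 5 genes. With both tables the members called went from 10 to 6 for EGCG in WAT day 4, from 5 to 2 between depots in day 4 EGCG cells and from 7 to 2 between days of the EGCG effect in BAT. Without that library the difference between depots went from 3 to 6. In the comparisons described without a test, the median over members for EGCG in WAT day 8 was 0.34 with median-ratio scaling (0.54 as deposited), and between depots on day 8 with EGCG it was -0.19 with quantile normalization (-0.30 as deposited). Loxl4 in WAT day 8 EGCG went from 0.07 to -0.12 with median-ratio scaling and -0.074 with quantile normalization, and Lox between depots on day 8 with EGCG went from -0.18 to 0.22 with quantile normalization. The cause was not tested for these. The call on Fbn1 for EGCG in WAT day 4 was lost without the filter (adjusted p = 0.057) and with quantile normalization (adjusted p = 0.0871), and that on Fbln2 between depots in day 4 EGCG cells without the filter, with median-ratio scaling and with quantile normalization (adjusted p = 0.121, 0.147 and 0.207). Leaving out the filter ended 4 calls, and quantile normalization ended 3, among them that on Lox for the difference between days of the EGCG effect in BAT (-0.17, adjusted p = 0.144). With 2 libraries a group, small differences rest on few degrees of freedom, and Loxl4, at 91 reads in its lowest library, has the largest counting error of the members.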
